A study of Mus musculus with 12 samples.

Results

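The genes described here encode the proteasome, the protease that destroys proteins tagged with ubiquitin, together with its activators and assembly factors. They were chosen by symbol alone. Every listed gene whose symbol begins with Psm, then a letter from a to g, then a number was taken, and Psmb8, Psmb9 and Psmb10, the inducible catalytic subunits, were left out and are given beside them. The rule took 48 of the 16411 genes listed. By role, 16 belong to the core particle (8 Psma and 8 Psmb genes) and 17 to the 19S regulatory particle. A further 3 are chaperones of 19S assembly (Psmd5, Psmd9 and Psmd10), 6 are other activators or an inhibitor, and 4 are chaperones of core assembly (Psmg1 to Psmg4). The last 2, Psmc3ip and Psme3ip1, only share the start of their symbol: the first encodes a cofactor of meiotic recombination and the second a protein that binds Psme3.

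The RNA came from female mice, from 6 tumors of the mammary gland and 6 pieces of benign mammary tissue, all labelled MMTV-Neu-NDL-YD5 transgenic and kept on an FVB background. In this line the promoter of mouse mammary tumor virus drives an activated form of neu, the rodent HER2, in the mammary epithelium, and the benign samples carry the same transgene. Benign pieces showed no tumor by eye and were taken from other mice than the tumors. No agent was given to either group, and the labels give no age. Total counts per sample ranged from 5240853 to 8588567, and values are CPM, counts relative to library size after TMM scaling. A gene was called higher or lower when edgeR's two-sided quasi-likelihood test gave an adjusted p-value under 0.1 over the 13191 genes that passed a filter on low counts. Of the 48 proteasome genes, 45 passed that filter.

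The tissues differed widely in their cells. The summed level of 8 adipocyte markers was 10709 to 23725 CPM in benign samples and 52.5 to 162 CPM in tumors, with all 8 lower. The summed level of 7 epithelial markers was 927 to 2372 CPM in benign samples and 2102 to 3910 CPM in tumors, where Epcam, Cdh1, Krt8 and Krt18 rose and Krt19, Krt5 and Krt14 fell. Skeletal muscle transcripts stood out in 3 benign samples. The summed level of 10 muscle markers was 53225 CPM in benign 3, 35226 CPM in benign 4 and 90413 CPM in benign 6, against 17.4 to 364 CPM in the other 3 benign samples and 1.204 to 149 CPM in tumors, and all 10 markers had their highest value in those 3. Brown fat markers (5 genes) summed to 36.0 to 3132 CPM in benign tissue, highest in benign 4 and benign 6, and to 9.63 to 31.6 CPM in tumors. Immune markers (7 genes) summed to 1006 CPM in benign 1, to 122 to 208 CPM in the other benign samples and to 85.0 to 170 CPM in tumors. Proliferation markers (6 genes) ranged from 88.6 to 816 CPM in benign samples and from 519 to 724 CPM in tumors, and 0 of the 6 were called by edgeR or at an unadjusted p under 0.05, with 1 called higher by DESeq2. No marker of these lists was at 0 in every tumor. In such bulk samples, fewer cells of a type and less RNA per cell cannot be told apart.

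The proteasome is built in blocks. The core particle is a barrel of stacked rings, with outer rings of Psma proteins that gate the entrance and inner rings of Psmb proteins, of which Psmb5, Psmb6 and Psmb7 carry the catalytic sites. The 19S regulatory particle sits on the ends of the barrel, where a ring of Psmc ATPases unfolds the substrate and Psmd proteins bind and remove ubiquitin. Every cell needs the complex, and in many cells its genes are raised together by the transcription factor Nfe2l1 when proteasomes are inhibited, through antioxidant response elements in their promoters.

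Promoters of 40 of the 48 genes were matched by symbol in RefSeq (GRCm38.p6), as windows of 300 bases from 250 before to 50 after a start. RefSeq gives 4 of these genes several starts, and a gene was counted when any of its windows held a motif. Each window was searched on both strands for TGACNNNGC, the core of the antioxidant response element, for CCAAT, the box bound by NF-Y, and for CCGGAAG, an element of ETS factors. Psmb5 and Psmb6 are shown because they are catalytic subunits with the antioxidant response element, Psmb3 because it had the largest fall of the core, Psmd4 and Psmd13 because they were lower 19S genes with the ETS element, and Psmd5 because it had the largest rise. Capitals mark the matches, and the sequences read 5′ to 3′ along the gene. Psmb5 is at chr14:54617946-54618245 on the minus strand, Psmb6 at chr11:70525107-70525406 on the plus strand, Psmb3 at chr11:97703184-97703483 on the plus strand, Psmd4 at chr3:95042565-95042864 on the minus strand, Psmd13 at chr7:140882144-140882443 on the plus strand and Psmd5 at chr2:34870913-34871212 on the minus strand.
Psmb5: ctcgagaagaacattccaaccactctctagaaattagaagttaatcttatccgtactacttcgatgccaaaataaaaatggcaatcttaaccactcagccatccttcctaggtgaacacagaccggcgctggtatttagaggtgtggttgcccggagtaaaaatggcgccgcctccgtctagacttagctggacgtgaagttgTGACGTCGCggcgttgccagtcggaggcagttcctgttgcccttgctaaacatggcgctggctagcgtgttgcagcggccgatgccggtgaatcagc
Psmb6: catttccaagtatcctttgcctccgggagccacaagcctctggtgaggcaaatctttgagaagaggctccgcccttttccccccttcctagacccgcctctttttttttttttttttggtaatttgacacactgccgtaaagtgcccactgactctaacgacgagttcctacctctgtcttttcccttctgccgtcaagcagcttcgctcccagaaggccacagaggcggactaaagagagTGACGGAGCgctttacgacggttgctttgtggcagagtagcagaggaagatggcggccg
Psmb3: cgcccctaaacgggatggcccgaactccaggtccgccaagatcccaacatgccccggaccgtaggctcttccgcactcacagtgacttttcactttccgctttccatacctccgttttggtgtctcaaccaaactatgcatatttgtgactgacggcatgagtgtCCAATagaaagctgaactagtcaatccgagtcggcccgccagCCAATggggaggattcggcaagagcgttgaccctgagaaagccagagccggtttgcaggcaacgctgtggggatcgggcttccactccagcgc
Psmd4: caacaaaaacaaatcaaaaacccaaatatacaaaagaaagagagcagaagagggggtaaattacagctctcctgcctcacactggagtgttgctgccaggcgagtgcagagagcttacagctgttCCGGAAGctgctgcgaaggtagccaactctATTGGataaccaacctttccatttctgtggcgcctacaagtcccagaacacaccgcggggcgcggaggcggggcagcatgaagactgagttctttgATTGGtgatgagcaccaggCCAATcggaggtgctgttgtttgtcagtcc
Psmd13: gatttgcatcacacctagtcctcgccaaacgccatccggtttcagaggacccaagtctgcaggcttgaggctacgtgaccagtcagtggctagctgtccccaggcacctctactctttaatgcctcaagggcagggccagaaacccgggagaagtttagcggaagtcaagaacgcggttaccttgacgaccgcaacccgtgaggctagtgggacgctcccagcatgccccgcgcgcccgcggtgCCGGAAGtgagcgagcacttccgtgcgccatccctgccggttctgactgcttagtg
Psmd5: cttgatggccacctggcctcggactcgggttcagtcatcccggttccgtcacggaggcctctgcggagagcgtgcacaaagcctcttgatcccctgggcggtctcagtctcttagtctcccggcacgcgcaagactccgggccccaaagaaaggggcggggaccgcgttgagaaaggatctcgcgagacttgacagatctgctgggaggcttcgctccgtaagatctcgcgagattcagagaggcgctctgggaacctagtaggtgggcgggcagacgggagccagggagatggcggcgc
In these windows the antioxidant response element lies from -47 to -39 in Psmb5 and from -9 to -1 in Psmb6. Psmb3 has 2 CCAAT boxes, Psmd4 has 3 CCAAT boxes and an ETS element, Psmd13 has an ETS element that spans the start, and Psmd5 has none of the 3 motifs.

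Over the 40 genes, the antioxidant response element was in 6 (15%), against 16.9% of the 10480 tested genes with a promoter and 13.99% of all 27025 genes with a promoter. The CCAAT box was in 15 (37.5%), against 42.9% and 41.1%. The ETS element was in 16 (40%), against 19.4% and 9.93%. These shares are descriptions without a test. The ETS element was placed unevenly, in 9 of 14 19S subunits and in 1 of 12 core subunits (Psma6, at another start than its CCAAT boxes), whereas the CCAAT box was in 7 of 12 core and 4 of 14 19S subunits. Among genes with a single window, the ETS element was in 8 of 13 19S and 0 of 11 core subunits, and in 18.6% of 8307 tested genes. Of the genes with an ETS element 9 of 16 were lower in tumors. Of those without it, which include the untested Psmb11 and Psme2b, 10 of 24 were lower. Over all tested genes 34.8% were lower. By class the counts went both ways. Among 19S subunits 6 of 9 with the element and 5 of 5 without it were lower. Among core subunits these were 1 of 1 and 4 of 11, and among the other members 2 of 6 and 1 of 8. Of the genes with the antioxidant response element 1 of 6 was lower (Psmb5), and the other 5 (Psmb6, Psmc6, Psmd9, Psmd12 and Psme4) were not called. Of those without it 18 of 34 were lower and 2 higher. For the CCAAT box, 8 of 15 genes with it and 11 of 25 without it were lower. No difference in calls by motif was tested.

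In tumors against benign tissue, 21 proteasome genes were lower and 2 were higher, Psmd5 and Psmf1, while 22 were not called. Among all tested genes 34.8% were lower and 28.2% higher, 63.0% in either direction. The genes called lower were thus 46.7% of the 45, somewhat above the background, and the genes called higher were 4.44%, well below it. The shifts were small. The median log2 fold change was -0.25 over the 45 genes and -0.06 over all genes, and the median size of the change was 0.30 against 0.59 over all genes. A single gene of the 45, Psmc3ip, passed a log2 fold change of 1 in size, where 32.8% of all genes did. All 6 tumors lay below all 6 benign samples for 12 of the 45 genes, where 21.2% of all genes did so, and all 6 lay above for 0 of the 45, where 14.7% did. At an unadjusted p under 0.05, 21 genes were lower and 1 was higher, and DESeq2 called 22 lower and 2 higher.

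**Figure D1:**
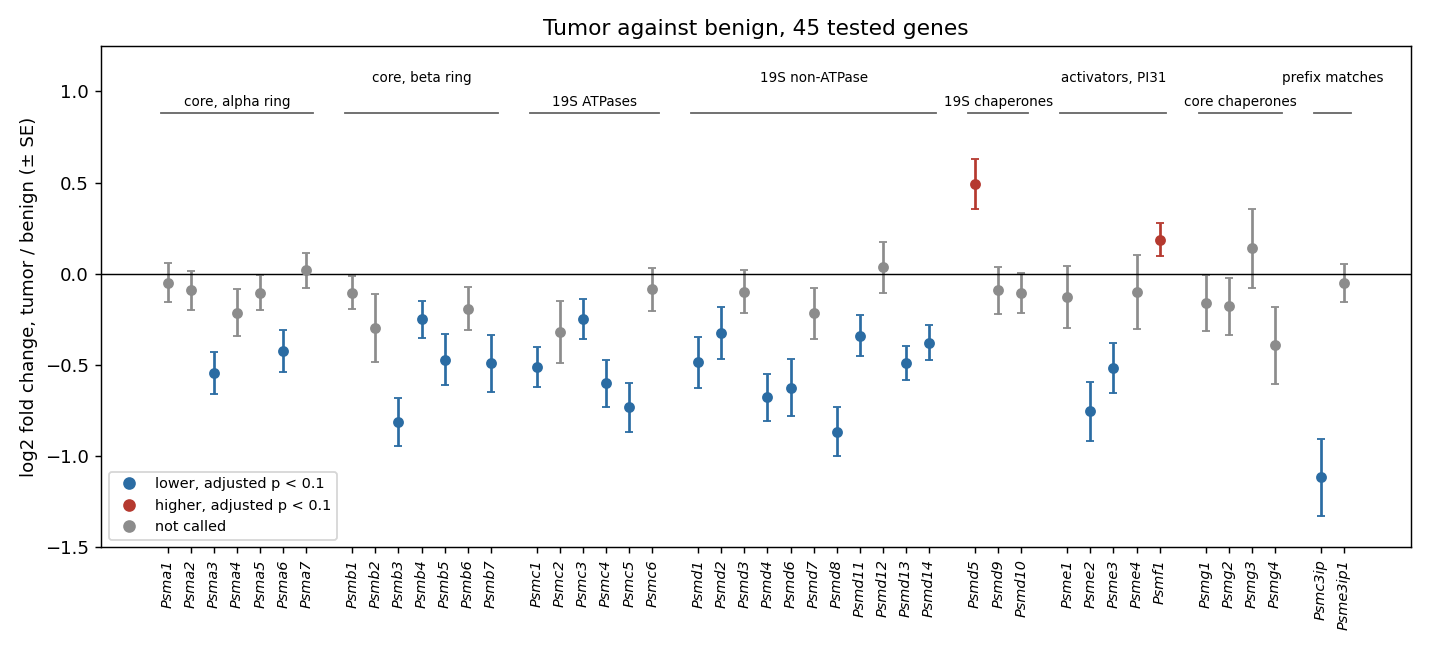
Log2 fold change of tumor over benign tissue (y axis, points with bars of 1 standard error from edgeR) for the 45 tested proteasome genes (x axis, in blocks by role). Blue points are the 21 genes called lower, red points the 2 called higher and grey points the 22 not called; 40 of the 45 points lie below 0.

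The core and the regulatory particle differed in their median shift and in their share of lower genes. Of 14 tested core subunits 6 were lower and 0 higher, with a median log2 fold change of -0.23 (-0.14 without tumor 2, -0.15 without tumor 3 and -0.13 with total counts in place of TMM), and at an unadjusted p under 0.05 or by DESeq2 the counts were again 6 and 0. Of 17 tested 19S subunits 12 were lower and 0 higher, also at an unadjusted p under 0.05 and by DESeq2, with a median of -0.38. The count of lower 19S genes was 10 with total counts, under the other filters, with the replicate block and at a threshold of 0.05. Leaving out 1 sample at a time gave 10 to 12. The 19S median was -0.29 with total counts and -0.30 without tumor 6. The genes called lower made up 42.9% of the core and 70.6% of the 19S subunits. Over all tested genes 34.8% were lower and 28.2% higher, so the core share of lower genes was only somewhat above the background. The mean log2 CPM of the core was 0.17 to 0.33 below that of the 19S subunits in benign samples and 0.08 to 0.15 below it in tumors, so the gap was narrower in every tumor than in every benign sample. It was widest in benign 3 and benign 6, at -0.33 for core minus 19S in both. In the other benign samples that value was -0.19 to -0.17, near the -0.15 of tumor 1. These are descriptions over genes that share samples, and the difference between the particles was not tested.

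In the outer ring, Psma3 and Psma6 were lower, and Psma1, Psma2, Psma4, Psma5 and Psma7 were not called (log2 fold changes from -0.22 to 0.02). Psma3, the called gene with the largest fall in the ring, had 120, 142 and 166 CPM as its lowest, median and highest benign value and 77.8, 101 and 110 CPM in tumors. Its groups did not overlap. Its log2 fold change was -0.55 (SE 0.12, adjusted p = 0.00158 by edgeR), and the exact permutation p of 0.00216 is the smallest that 924 regroupings can give. Psma8, a subunit of testis proteasomes, had at most 2 counts in any sample and was not tested.

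In the inner ring, Psmb3, Psmb4, Psmb5 and Psmb7 were lower, and Psmb1, Psmb2 and Psmb6 were not called. Psmb3, a structural subunit, fell most. It had 71.3, 89.0 and 115 CPM (lowest, median and highest) in benign tissue and 43.5, 50.3 and 62.2 CPM in tumors. Every tumor was below every benign sample, with the highest value in benign 4 and the lowest in tumor 3. In edgeR the log2 fold change was -0.81 (SE 0.13, adjusted p = 0.000164). Psmb11, the catalytic subunit of the thymus, was near 0, with at most 3 counts in any sample, and was not tested.

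The 3 constitutive catalytic subunits differed in their calls. Psmb5, which cuts after hydrophobic residues and is the main target of proteasome inhibitors, had 40.8, 55.5 and 68.6 CPM in benign samples and 31.3, 39.5 and 46.9 CPM in tumors. Its groups overlapped, with 3 of 6 tumors below the lowest benign sample. The log2 fold change was -0.47 (SE 0.14, adjusted p = 0.012 by edgeR). Psmb7, which cuts after basic residues, had 100.1, 138 and 188 CPM in benign samples and 89.8, 101 and 110 CPM in tumors. Here too 3 of 6 tumors were below all benign samples, and the 2 highest benign values were in benign 4 and benign 6. In edgeR the log2 fold change was -0.49 (SE 0.16, adjusted p = 0.0172). Psmb6, which cuts after acidic residues, had 87.4, 113 and 134 CPM in benign samples and 87.7, 99.0 and 102 CPM in tumors. All tumors lay within the benign range, and the gene was not called (log2 fold change -0.19, SE 0.12, adjusted p = 0.182 by edgeR). Against benign 3, 4 and 6 alone Psmb6 was lower, at -0.31 (adjusted p = 0.0237 by edgeR). Against benign 1, 2 and 5 alone none of the 3 genes was called. The differences between the 3 genes were not tested.

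**Figure D2:**
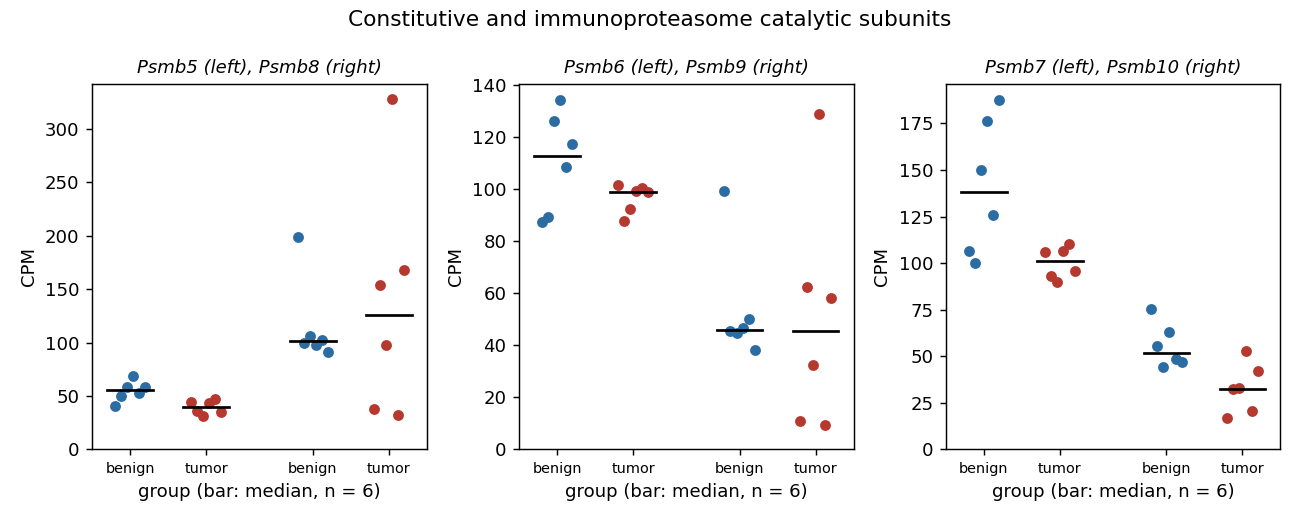
CPM (y axis) of the 3 constitutive catalytic subunits and, beside each, the inducible subunit that takes its place in the immunoproteasome (x axis, benign in blue and tumor in red). Each point is a sample and each bar a group median (n = 6); the tumors of Psmb5, Psmb6 and Psmb7 lie close together, whereas Psmb8 spans 31.8 to 328 CPM among tumors.

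Of the 6 ATPases of the 19S ring, Psmc1, Psmc3, Psmc4 and Psmc5 were lower and Psmc2 and Psmc6 were not called. Psmc5 fell most, from 96.0, 129 and 145 CPM (lowest, median and highest) in benign tissue to 62.2, 76.3 and 90.2 CPM in tumors. The groups did not overlap, and benign 3 and benign 6 held the highest values. Its log2 fold change was -0.73 (SE 0.13, adjusted p = 0.000462 by edgeR). Psmc1 and Psmc4 also had all 6 tumors below all benign samples, with log2 fold changes of -0.51 and -0.60. The call of Psmc3 (log2 fold change -0.25, adjusted p = 0.0707 by edgeR) was lost in 11 of 12 fits that left out 1 sample, all but the fit without benign 1, with log2 fold changes from -0.25 to -0.14.

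Of the 11 other 19S subunits, Psmd1, Psmd2, Psmd4, Psmd6, Psmd8, Psmd11, Psmd13 and Psmd14 were lower, and Psmd3, Psmd7 and Psmd12 were not called. Psmd8, a lid subunit, had the largest fall of any proteasome subunit. Its values were 144, 178 and 245 CPM in benign samples and 82.9, 99.5 and 110 CPM in tumors. No tumor reached the lowest benign sample, and benign 4 was highest. The log2 fold change was -0.87 (SE 0.13, adjusted p = 0.000113 by edgeR).

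Psmd4, a receptor for ubiquitin chains, had a log2 fold change of -0.68 and no overlap between groups. Psmd14, the enzyme that removes the ubiquitin chain, had a log2 fold change of -0.38 and no overlap either, as did Psmd13 with -0.49. Psmd1 and Psmd2 are the scaffolds that dock shuttles and ubiquitin-like domains. Psmd1 was lower (log2 fold change -0.49), with 4 of 6 tumors below all benign samples. Psmd2 was lower (log2 fold change -0.33, adjusted p = 0.0721 by edgeR) with 0 of 6 tumors below the lowest benign sample, and this call was lost without benign 3, benign 4 or benign 6 and without any of the tumors, 9 of 12 fits, with log2 fold changes from -0.34 to -0.24. Likewise the call of Psmb4 (log2 fold change -0.25, adjusted p = 0.0512 by edgeR) was lost without benign 4 and without any of the tumors, 7 of 12 fits, with values from -0.25 to -0.17.

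Psmd5, a chaperone that holds the ATPase ring during 19S assembly, was higher in tumors. It had 42.6, 51.5 and 60.3 CPM (lowest, median and highest) in benign tissue and 60.1, 66.6 and 91.7 CPM in tumors. The groups met at their edges, tumor 3 lying just under the highest benign sample, and tumor 1 and tumor 6 were far above the rest. In edgeR the log2 fold change was 0.49 (SE 0.14, adjusted p = 0.00828), and it stayed between 0.45 and 0.61 when any 1 sample was left out. The other chaperones of 19S assembly, Psmd9 and Psmd10, were not called, with log2 fold changes of -0.09 and -0.10.

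Among the proteins that open the core without the 19S particle, Psme2 and Psme3 were lower. Psme1 and Psme2 form the activator ring that interferon induces. Psme2 had 128, 141 and 175 CPM in benign samples and 65.3, 83.3 and 127 CPM in tumors. The highest tumor, tumor 4, was just below the lowest benign sample. The log2 fold change was -0.76 (SE 0.16, adjusted p = 0.00159 by edgeR). Psme1 had 104, 122 and 175 CPM in benign samples and 82.2, 112 and 157 CPM in tumors, with wide overlap. It was not called (log2 fold change -0.13, SE 0.17, adjusted p = 0.543 by edgeR). The partners of this ring therefore differed in their calls, and the difference between them was not tested. Psme2b, a retrocopy of Psme2 whose reads can be assigned to either gene, had 0.660, 1.68 and 8.89 CPM in benign tissue, highest in benign 1, and 0, 0.110 and 1.69 CPM in tumors, and did not pass the filter.

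Psme3, which forms a nuclear activator ring, had 106, 132 and 178 CPM in benign samples and 73.9, 96.2 and 104 CPM in tumors. Its groups did not overlap, and benign 3 was highest. In edgeR the log2 fold change was -0.52 (SE 0.14, adjusted p = 0.00578). Psme4, a large single-chain activator, had 79.3, 113 and 168 CPM in benign samples and 88.4, 105 and 142 CPM in tumors, and the tumors lay within the benign range. It was not called (log2 fold change -0.10, SE 0.20, adjusted p = 0.697 by edgeR). Psmf1, which inhibits the core in the test tube, had 35.1, 39.2 and 42.6 CPM in benign samples and 39.5, 44.8 and 47.9 CPM in tumors. The ranges overlapped and the rise was slight, with a log2 fold change of 0.19 (SE 0.09, adjusted p = 0.0967 by edgeR). That call was lost without benign 5 or without benign 6, with log2 fold changes between 0.16 and 0.28 over the 12 fits.

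The chaperones of core assembly, Psmg1 to Psmg4, had 0 genes called in either direction by edgeR, at an unadjusted p under 0.05 or by DESeq2, with log2 fold changes from -0.39 (Psmg4) to 0.14 (Psmg3). Their levels per length were below those of the subunits. Per kb of transcript, the median benign level was 12.9 to 27.7 CPM per kb for the 4 core chaperones and 11.4 to 17.2 CPM per kb for the 3 19S chaperones, against 39.1 to 151 CPM per kb for the 14 tested core subunits and 44.0 to 120 CPM per kb for the 17 19S subunits. Of the genes that only share the prefix, Psme3ip1 was not called (log2 fold change -0.05) and Psmc3ip was lower. Psmc3ip had 15.6, 19.9 and 31.4 CPM in benign samples and 7.56, 10.9 and 12.01 CPM in tumors. Its groups did not overlap, and its log2 fold change was -1.12 (SE 0.21, adjusted p = 0.000592 by edgeR). Without these 2 genes, 20 of 43 tested genes were lower and 2 higher, and the median log2 fold change was the same -0.25.

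**Figure D3:**
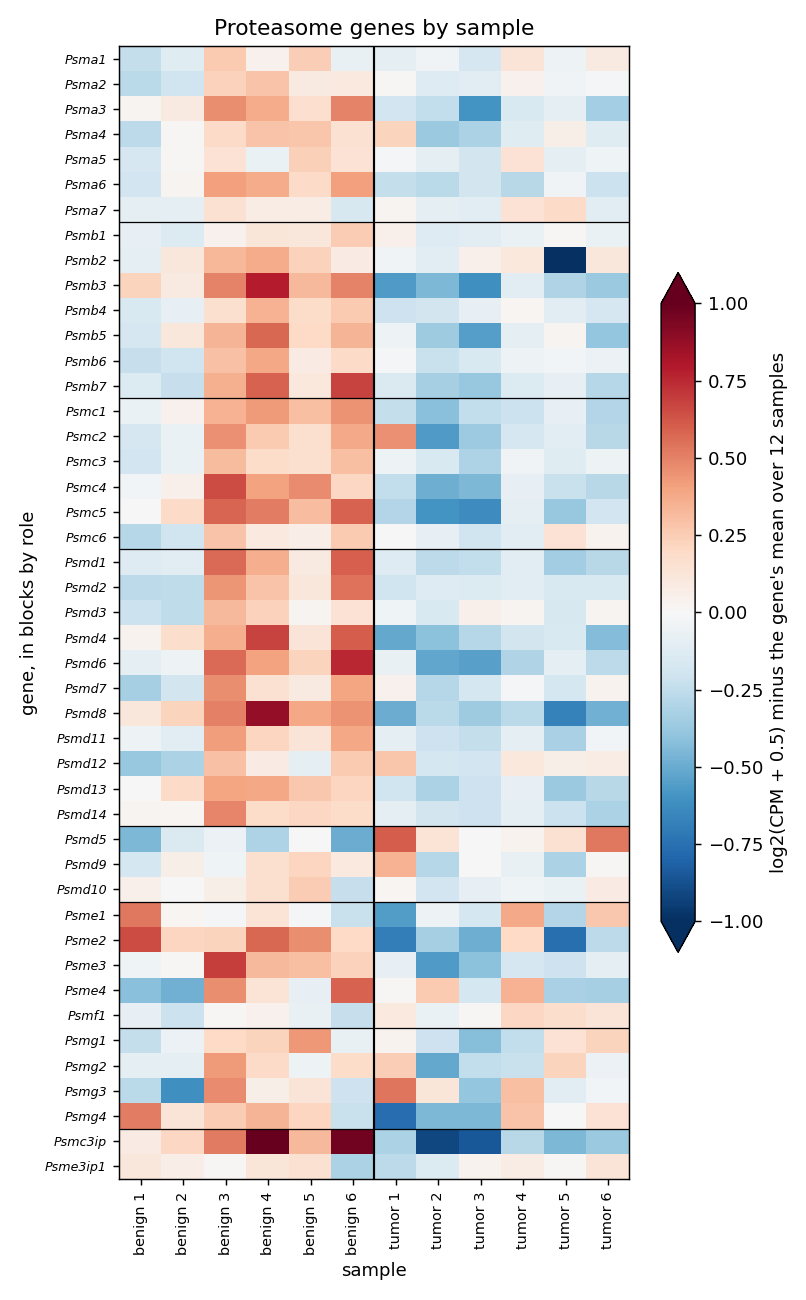
Log2(CPM + 0.5) of each tested proteasome gene (y axis, in blocks by role) in each of the 12 samples (x axis), as the difference from the gene's mean over all samples (color; the scale ends at -1 and 1). Benign 3, 4 and 6 are red across most core and 19S genes, benign 1 and benign 2 are close to the tumors, and tumor 5 stands out for Psmb2.

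The benign samples were not alike. The mean log2 CPM of the 17 19S subunits was 6.71 in benign 1, 6.78 in benign 2, 7.26 in benign 3, 7.16 in benign 4, 7.01 in benign 5 and 7.22 in benign 6, and in tumors 1 to 6 it was 6.71, 6.52, 6.55, 6.72, 6.63 and 6.64. For the 14 core subunits the benign means were 6.52, 6.61, 6.93, 6.98, 6.83 and 6.89, and the tumor means were 6.56, 6.44, 6.40, 6.62, 6.53 and 6.51. Benign 1 thus lay within the tumor range for both particles. After TMM scaling, the highest means belonged to the 3 samples with muscle transcripts. Tumors were also more alike than benign samples. The SD of log2 CPM was smaller in tumors for 34 of 45 genes (75.6%), for 16 of 17 19S and 11 of 14 core subunits, against 56.7% of all tested genes. Together the 48 genes took 0.414% to 0.503% of the counts in benign samples and 0.355% to 0.424% in tumors. This share uses no TMM scaling, and it ranked the benign samples in another order. It was 0.503% in benign 3, 0.4995% in benign 5, 0.446% in benign 4 and 0.4309% in benign 2. In benign 6 it was 0.4191%, above only benign 1 among benign samples and below tumor 1 (0.4199%) and tumor 4 (0.424%).

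**Figure D4:**
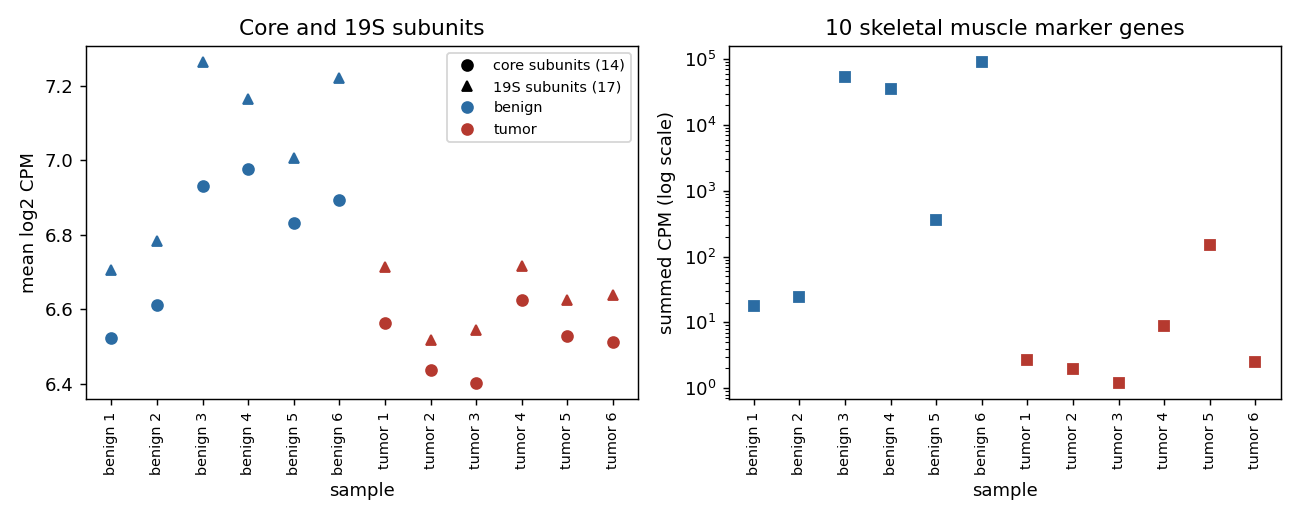
Left, mean log2 CPM (y axis) of the 14 core subunits (circles) and 17 19S subunits (triangles) in each sample (x axis, benign in blue, tumor in red). Right, the summed CPM of 10 skeletal muscle markers in the same samples (log scale), where benign 3, 4 and 6 reach 53225, 35226 and 90413 CPM.

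The tumors were also compared with benign 1, 2 and 5 alone, without the 3 samples rich in muscle transcripts. In that fit 12 of 46 proteasome genes were lower, a share near the 28.7% over all genes. Only 3 were higher, a smaller share than the 26.7% over all genes. The median log2 fold change of the proteasome genes was -0.10. Core subunits then had 2 lower genes (Psma3 and Psmb3), with a median of -0.08. The 19S subunits had 7 lower genes (Psmc1, Psmc4, Psmc5, Psmd4, Psmd8, Psmd13 and Psmd14), with a median of -0.14, and 1 higher, Psmd12, with a log2 fold change of 0.33. Psme2, Psmc3ip and Psme2b, which passed the filter there, were also lower, and Psmd5 and Psmf1 were again higher. Calls were lost for Psma6, Psmb4, Psmb5, Psmb7, Psmc3, Psmd1, Psmd2, Psmd6, Psmd11 and Psme3, and Psmd2 turned to 0.02 (adjusted p = 0.919 by edgeR). This choice of samples was made after the data were seen. The share of all genes called lower was smaller there as well, 28.7% against 34.8% with all samples. That drop was less than the drop in the share of the proteasome genes.

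Against benign 3, 4 and 6 alone, 24 of 45 proteasome genes were lower, a larger share than the 32.0% over all genes. In that fit 1 proteasome gene, Psmd5, was higher, where 29.5% of all genes were. The median log2 fold change of the proteasome genes was -0.32. Psmd8 was lower in both comparisons, with log2 fold changes of -0.63 against benign 1, 2 and 5 and -0.98 against benign 3, 4 and 6. Psmb7 was at -0.10 and not called against the former and lower, at -0.71, against the latter. Both comparisons share the tumors. Brown fat markers were highest in benign 4 and benign 6, and proliferation markers in benign 3, so these samples differed in more than muscle. The part of muscle and of brown fat in the lower level of the proteasome genes was not tested.

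**Figure D5:**
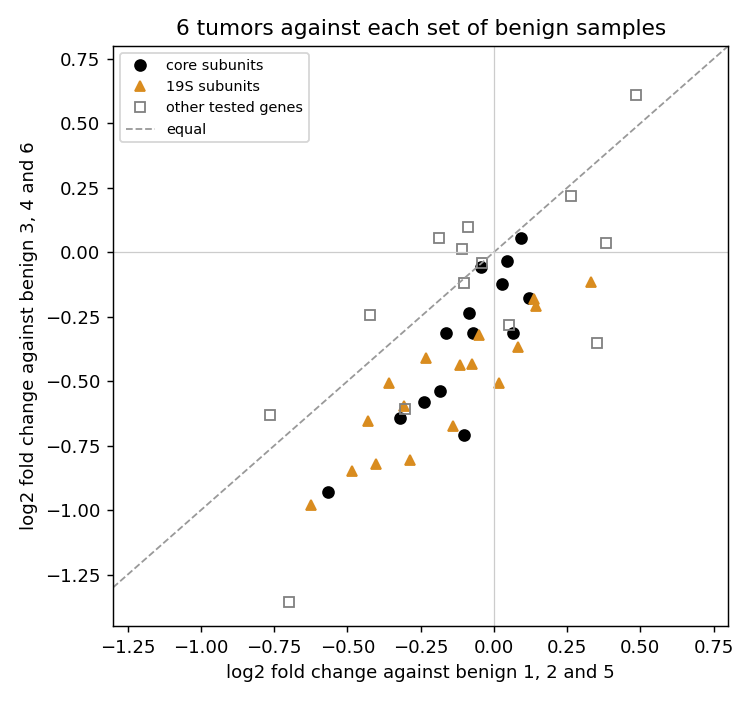
Log2 fold change of the 6 tumors against benign 1, 2 and 5 (x axis) and against benign 3, 4 and 6 (y axis) for core subunits (black circles), 19S subunits (orange triangles) and the other tested genes (open squares). The tumors are shared by both axes; most core and 19S points lie below the dashed line of equal change, and Psmd8 is at -0.63 and -0.98.

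The inducible subunits that replace the catalytic ones in the immunoproteasome followed another pattern. Psmb8, which replaces Psmb5, had 91.6, 101 and 199 CPM (lowest, median and highest) in benign tissue and 31.8, 126 and 328 CPM in tumors. Psmb9, which replaces Psmb6, had 38.2, 46.0 and 99.3 CPM in benign samples and 9.21, 45.5 and 129 CPM in tumors. Tumor 4 was highest and tumor 1 and tumor 5 were lowest for both, and among benign samples benign 1 stood apart, the sample whose immune markers summed to 1006 CPM. Neither gene was called, with log2 fold changes of 0.23 (SE 0.48) for Psmb8 and -0.10 (SE 0.54) for Psmb9. Psmb10, which replaces Psmb7, had 44.3, 51.9 and 75.2 CPM in benign samples and 16.8, 32.7 and 52.9 CPM in tumors. It was lower, with 5 of 6 tumors below all benign samples and a log2 fold change of -0.75 (SE 0.25, adjusted p = 0.0223 by edgeR), and it was not called against benign 3, 4 and 6 alone. Per kb of transcript, the ratio of Psmb8 to Psmb5 was 0.785 to 2.70 in benign tissue and 0.375 to 4.19 in tumors, and it was above 1 in 4 of 6 samples of each group.

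Of 12 other proteasome parts and partners, 3 were lower (Adrm1, Sem1 and Akirin2) and 1 was higher (Ube3c), with a median log2 fold change of 0.06. Over all tested genes, the background for this list and those below, 34.8% were lower and 28.2% higher. Adrm1, a ubiquitin receptor of the 19S particle, had 99.3, 123 and 146 CPM in benign samples and 62.2, 90.2 and 99.997 CPM in tumors. It was lower, with a log2 fold change of -0.51 (SE 0.14, adjusted p = 0.00832 by edgeR), and of -0.25 and not called against benign 1, 2 and 5 alone (adjusted p = 0.214). Akirin2, which carries proteasomes into the nucleus, had 46.1, 49.2 and 54.5 CPM in benign samples and 21.4, 31.5 and 43.3 CPM in tumors, with no overlap. Its log2 fold change was -0.61 (SE 0.14, adjusted p = 0.00263 by edgeR). Ube3c, a ubiquitin ligase bound to the proteasome, had 51.2, 60.0 and 72.9 CPM in benign samples and 59.6, 73.0 and 117 CPM in tumors, and a log2 fold change of 0.35 (SE 0.15, adjusted p = 0.0673 by edgeR). That call was lost without benign 4 or without benign 5, where the value was 0.34. Pomp, the chaperone that matures the core, and the deubiquitinases Usp14 and Uchl5 were not called, with log2 fold changes of 0.13, 0.15 and -0.21.

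Of 9 genes that control proteasome genes, 3 were lower (Nfe2l2, Ngly1 and Hsf1) and 1 was higher (Ddi2), with a median log2 fold change of -0.16. Hsf1 was not called by DESeq2 or at an unadjusted p under 0.05, and its call was lost in 10 of 12 fits that left out 1 sample, all but those without benign 5 or tumor 5. Ngly1 was not called against benign 1, 2 and 5 alone (adjusted p = 0.214 by edgeR). Ddi2, the protease that cuts Nfe2l1 free to enter the nucleus, had the largest rise of the pathway genes. It had 93.6, 103 and 111 CPM in benign samples and 182, 261 and 324 CPM in tumors. Every tumor was far above every benign sample, and the benign values were tightly grouped. The log2 fold change was 1.33 (SE 0.13, adjusted p = 1.89e-06 by edgeR), and it was 1.42 against benign 1, 2 and 5 alone. Ddi2 overlaps Rsc1a1 on the same strand, so reads of the shared stretch can be assigned to either gene. Nfe2l1 itself had 371, 466 and 836 CPM in benign samples and 293, 381 and 508 CPM in tumors. The ranges overlapped, and the gene was just outside the threshold (log2 fold change -0.47, SE 0.23, adjusted p = 0.101 by edgeR). It was called lower without benign 1, benign 2 or benign 5, at -0.55 to -0.49, and was at 0.07 against benign 1, 2 and 5 alone (adjusted p = 0.765). Against benign 3, 4 and 6 alone it was lower, at -0.78 (adjusted p = 0.0109 by edgeR). Nfe2l2, the oxidative stress factor that binds the same element, had 102, 119 and 136 CPM in benign samples and 46.6, 61.5 and 83.6 CPM in tumors. It was lower without overlap, with a log2 fold change of -0.90 (SE 0.15, adjusted p = 0.000266 by edgeR), and of -0.70 against benign 1, 2 and 5 alone.

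Of 10 shuttle and unfoldase genes that deliver substrates, 4 were lower (Vcp, Nploc4, Ufd1 and Faf1) and 3 were higher (Ubqln2, Nsfl1c and Faf2), with a median log2 fold change of -0.20. Vcp, the ATPase that pulls ubiquitinated proteins out of complexes and membranes, had 454, 605 and 669 CPM in benign samples and 243, 474 and 509 CPM in tumors, and its cofactors Nploc4 and Ufd1 were lower with it. The log2 fold change of Vcp was -0.40 (SE 0.18, adjusted p = 0.0765 by edgeR). That call was lost in 11 of 12 fits that left out 1 sample, all but the fit without benign 1, and the value without tumor 5 was -0.21. Faf1, another cofactor of Vcp, had 51.3, 70.0 and 95.1 CPM in benign samples and 22.9, 44.8 and 51.8 CPM in tumors, with 5 of 6 tumors below all benign samples. Its log2 fold change was -0.75 (SE 0.21, adjusted p = 0.00825 by edgeR). Against benign 1, 2 and 5 alone, only Ufd1 of the 4 was still called lower, with Vcp at -0.18, Nploc4 at -0.18 and Faf1 at -0.39, and the 3 higher genes were again higher. Ubqln2, a shuttle receptor, rose from 62.7, 74.6 and 92.1 CPM to 80.5, 98.5 and 111 CPM, a log2 fold change of 0.34 (SE 0.11, adjusted p = 0.0234 by edgeR). Of 6 genes for ubiquitin and its activating enzymes, 1 was lower and 0 were higher by edgeR, with 1 lower and 0 higher at an unadjusted p under 0.05 and 1 lower and 1 higher (Uba1) by DESeq2. The lower gene was Ubb, one of the polyubiquitin genes, with 563, 598 and 672 CPM in benign samples, 368, 509 and 603 CPM in tumors and a log2 fold change of -0.31 (SE 0.13, adjusted p = 0.0611 by edgeR). Its call was lost in 9 of 12 fits that left out 1 sample, kept without benign 3, benign 5 or tumor 5, and the value without tumor 1 was -0.17. Over these lists together, 12 of 40 genes were lower and 5 higher, shares of 30.0% and 12.5%. Both lay below the 34.8% lower and 28.2% higher over all tested genes. Against benign 1, 2 and 5 alone, 5 of the 12 were lower (Psmb10, Sem1, Akirin2, Nfe2l2 and Ufd1) and the same 5 were higher, joined by Ecpas and Uba1. In that fit 5 of the 40 genes were thus lower and 7 higher, where 28.7% and 26.7% of all genes were.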

How the data were processed

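Poly A RNA of 6 tumors and 6 benign samples was sequenced as paired reads from directional libraries. The authors trimmed the reads with Trim Galore, quantified transcripts with Salmon on mm10 (versions not given in the sources used here) and deposited whole-number estimated counts for each gene, not scaled for library size. The lowest sum of counts over the samples for any of the 16411 genes was 5, and 0 columns lacked a sample. Salmon shares reads between similar transcripts, so genes with processed pseudogenes or retrocopies, of which the proteasome has many, are less certain.

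Samples were grouped by their labels. In R 4.3.3, edgeR 4.0.16 was used to filter genes (filterByExpr with the group, at least 10 counts and 15 in total), to scale libraries by TMM and to run its two-sided quasi-likelihood test. P-values were adjusted by the Benjamini-Hochberg method over 13191 genes, with a threshold of 0.1, which the study used for its DESeq2 results. The common biological coefficient of variation was 0.351. The study counts the 6 samples of each group as biological replicates. Whether samples within a group came from separate mice is not given in the sources used here. Every pair within a group differed by more than sampling noise (chi-square per degree of freedom of at least 12.5). Single genes were also compared by exact permutation of CPM, two-sided. The steps were tested on simulated data. Lengths are of the longest principal transcript of GENCODE M21, and promoters are from RefSeq.

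The members, the lists of pathway genes and markers, and the tests were chosen with earlier results of these data known. Named genes were the catalytic subunits, activators, tissue-restricted subunits and preset regulators, and in each class or list the called gene with the largest rise and fall. A gene of the pathway lists is not reported here. Other genes named with a value were chosen after their values were seen. The alternatives were DESeq2 1.42.0, other scalings and filters, the replicate number as a block, each sample left out, and 0.05 as the threshold. Leaving out benign 3, 4 and 6 or benign 1, 2 and 5 was chosen after seeing the data.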

Additional observations from a re-analysis of the deposited data

Results flagged for a closer look

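Among 96 groups of 6 samples, for the members and the 3 inducible subunits, 6 held a sample far from the other 5 by Dixon's test at the 95% level, which chance alone gives in about 1 of 20 groups. Psmb2, an inner-ring subunit, had 35.4 CPM in tumor 5, where the next lowest tumor had 74.5 CPM, and was not called between groups. Psmc2, a 19S ATPase, had 146 CPM in tumor 1 and 98.5 CPM in the next highest tumor, and without tumor 1 it was called lower with a log2 fold change of -0.41. Psmd14, the deubiquitinase of the lid, had 91.8 CPM in benign 3 and 75.3 CPM in the next benign sample, and its call was kept when any 1 sample was left out. Psme3ip1 had 42.4 CPM in benign 6, where the next lowest benign sample had 53.6 CPM. Psmb8 and Psmb9 had 199 and 99.3 CPM in benign 1, with 106 and 50.1 CPM as the next highest benign values. Benign 1 also held the highest value of 5 of the 7 immune markers, and their part in these levels was not tested.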

How the results depend on the processing

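The 21 lower genes became 18 to 22 under DESeq2, other scalings and filters, a threshold of 0.05 and the replicate block, and the members' median log2 fold change stayed below 0. The core median was -0.24 to -0.14 without each sample in turn and -0.13 with total counts. For the 19S subunits the median was -0.41 to -0.30 without each sample in turn and -0.29 with total counts. Their count of lower genes was 10 to 12 in these fits. Without each sample in turn, 18 to 21 members were lower and 1 or 2 higher. The count of higher genes was 1 in place of 2 under upper-quartile scaling, the replicate block, a threshold of 0.05 and without benign 1, 2 and 5, because Psmf1 was no longer called. Without benign 3, 4 and 6, 12 members were lower (median -0.10), 2 core subunits were lower (median -0.077), and 7 19S subunits were lower and 1 higher (median -0.14). The log2 fold change of Psmd2 reversed to 0.016 there. Samples with the same number did not deviate together (correlations from -0.12 to 0.10), and the replicate block gave 19 lower genes. Genes of few counts, such as Psma8 and Psmb11, allow no comparison at this depth.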
